A study of Mus musculus with 31 samples.

Results

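The genes described here are 9 members of the inflammasome and pyroptosis machinery other than Aim2, taken by name from the 46072 genes of the deposited tables: the sensors Nlrp3, Nlrp1b and Nlrc4, the adaptor Pycard, the caspases Casp1, Casp4 and Casp8, and the gasdermins Gsdmd and Gsdme. They were selected as a pathway, with earlier results of these data known. All 9 were present in the tables, Gsdme under its older symbol. Expression was measured by mRNA-Seq as TPM, a level corrected for gene length and for the size of the library, in 31 tumors, 1 per mouse. RM-9 is a mouse prostate cancer line and MC-38 a mouse colon cancer line, and cells of either were grown under the skin of the right hind leg of wild-type C57BL/6 mice (C57BL/6J in the study's methods) until the tumor was about 8 mm wide. Treated tumors received radiotherapy (RT) as a single dose of 15 Gy and were collected after 3 h, 12 h or 24 h. There were 4 mice in each of the RM-9 Control, RT 3 h and RT 12 h groups, 3 in RM-9 RT 24 h, and 4 in each of the same 4 groups of MC-38. Control tumors received no treatment and carried the 3 h label, so the RT groups of a model were all compared with the same 4 mice. Each model is 1 cell line, and the libraries hold tumor cells together with the blood, immune and connective tissue cells of the host, so fewer cells of a type and less RNA per cell cannot be told apart.

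Inflammasomes are protein complexes that form in the cytosol when a sensor detects a danger signal. NLRP3 responds to disturbed ion balance and cell damage, NLRP1B to bacterial proteases and loss of dipeptidyl peptidase control, and NLRC4 to bacterial proteins handed over by NAIP receptors. NLRP3 recruits ASC, the product of Pycard, which in turn gathers caspase-1. Caspase-1 matures IL-1β and IL-18 and cuts gasdermin D, whose freed part makes pores in the plasma membrane, a lytic death called pyroptosis. Mouse Casp4, also called caspase-11, binds bacterial lipopolysaccharide and cuts gasdermin D without a canonical sensor. Caspase-8 links this machinery to death receptors, and cleaved gasdermin E turns apoptosis into lytic death.

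The libraries held 21.4 to 29.4 M reads, 23.0 to 29.4 M in RM-9 and 21.4 to 25.5 M in MC-38. A few features of the whole series bear on every value below. TPM adds to the same total in each library, and the mitochondrial gene mt-Nd4l alone took 35.6% to 43.5% of it in RM-9 and 12.9% to 29.6% in MC-38 tumors, the highest MC-38 value being that of Control mouse 1. The deposited TPM of mt-Nd4l was 42.4 times the level that its read coverage gives, so this share is one of TPM and not of reads. That mouse also had the highest summed level of 8 skeletal muscle markers, 10858 TPM, against 17.9 to 1774 in the other MC-38 controls and 5.6 to 3609 in the irradiated MC-38 mice. The median of all genes tested moved by 0.06, -0.19 and -0.04 on the log2 scale in RM-9 at 3, 12 and 24 h, and by 0.19, 0.33 and 0.22 in MC-38, where it moved by 0.11, 0.21 and 0.13 with the mitochondrially encoded genes left out. Each change is therefore given for TPM as deposited and again after median-ratio scaling, which sets the median gene of every library level, and a call is adjusted p under 0.05 in limma over all genes tested. The summed level of 8 p53 target genes, a check on irradiation, was 1751 to 2443 TPM at 3 h in RM-9 against 896 to 1277 in Control, and 391 to 436 against 277 to 317 in MC-38. Markers of the organs of origin were low: the summed level of 3 prostate markers in RM-9 tumors was at most 4.07 TPM, with Pbsn at 0, and that of 4 colon markers in MC-38 tumors was at most 2.07. They did not follow the organ of origin. The colon markers summed to 4.68 to 8.47 TPM in RM-9, where Cdx2 had a median of 6.15. The prostate markers summed to 1.49 to 4.58 TPM in MC-38. The summed level of 5 epithelial markers was 669 to 1526 TPM in RM-9 and 0.553 to 1.56 in MC-38 tumors. In RM-9 this was mostly Krt8, Krt18 and Krt19, with medians of 767, 238 and 103 TPM. Median Epcam was 1.15 TPM in RM-9 and 0 in MC-38, and median Cdh1 was 0.44 and 0.57.

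Casp4, Pycard and Casp1, the neighbor of Casp4 on chromosome 9, are shown by the sequence just before their annotated starts. All 3 were called on both scales in MC-38 tumors. Nlrp3 was also called on both scales and is not shown. Coordinates are those of GRCm38, the build that the positions in the tables match, and the sequences are from RefSeq (GRCm38.p6), 5′ to 3′ on the strand of the gene, with the bases before the start only. Capitals mark letters that match the NF-kB decamer consensus on either strand.
Casp4, chr9:5308599-5308827, plus strand: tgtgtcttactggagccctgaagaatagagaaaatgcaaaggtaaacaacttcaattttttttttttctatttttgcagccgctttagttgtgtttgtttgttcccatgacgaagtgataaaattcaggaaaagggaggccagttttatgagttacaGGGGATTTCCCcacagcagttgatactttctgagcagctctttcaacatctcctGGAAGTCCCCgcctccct
Casp1, chr9:5298267-5298516, plus strand: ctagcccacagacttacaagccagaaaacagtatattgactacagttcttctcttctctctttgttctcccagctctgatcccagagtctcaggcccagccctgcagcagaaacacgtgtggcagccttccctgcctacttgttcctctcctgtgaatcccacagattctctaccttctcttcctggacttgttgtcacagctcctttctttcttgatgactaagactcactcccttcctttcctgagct
Pycard, chr7:127993868-127994117, minus strand: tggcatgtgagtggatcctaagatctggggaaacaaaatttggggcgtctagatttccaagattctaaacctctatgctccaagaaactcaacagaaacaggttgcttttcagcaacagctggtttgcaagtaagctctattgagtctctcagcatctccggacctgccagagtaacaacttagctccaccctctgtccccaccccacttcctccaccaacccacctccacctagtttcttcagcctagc

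The Casp4 stretch held 3 matches to the NF-kB consensus, a pair of which overlap in the first run of capitals. A match was found in 5.96% of the 32536 promoters of the RefSeq table. The stretches of Casp1 and Pycard held none. The stretch before the annotated start of Nlrp3, which is not shown, held 1 match. The interferon motifs GAS (TTCNNNGAA, in 7.04% of promoters) and ISRE (in 2.98%) were searched on both strands as well. Neither had a match in any of the 3 stretches shown. Of the 9 members, 8 had an entry in the table, with 11 promoters in all. These are matches of letters and say nothing of binding.

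**Figure D1:**
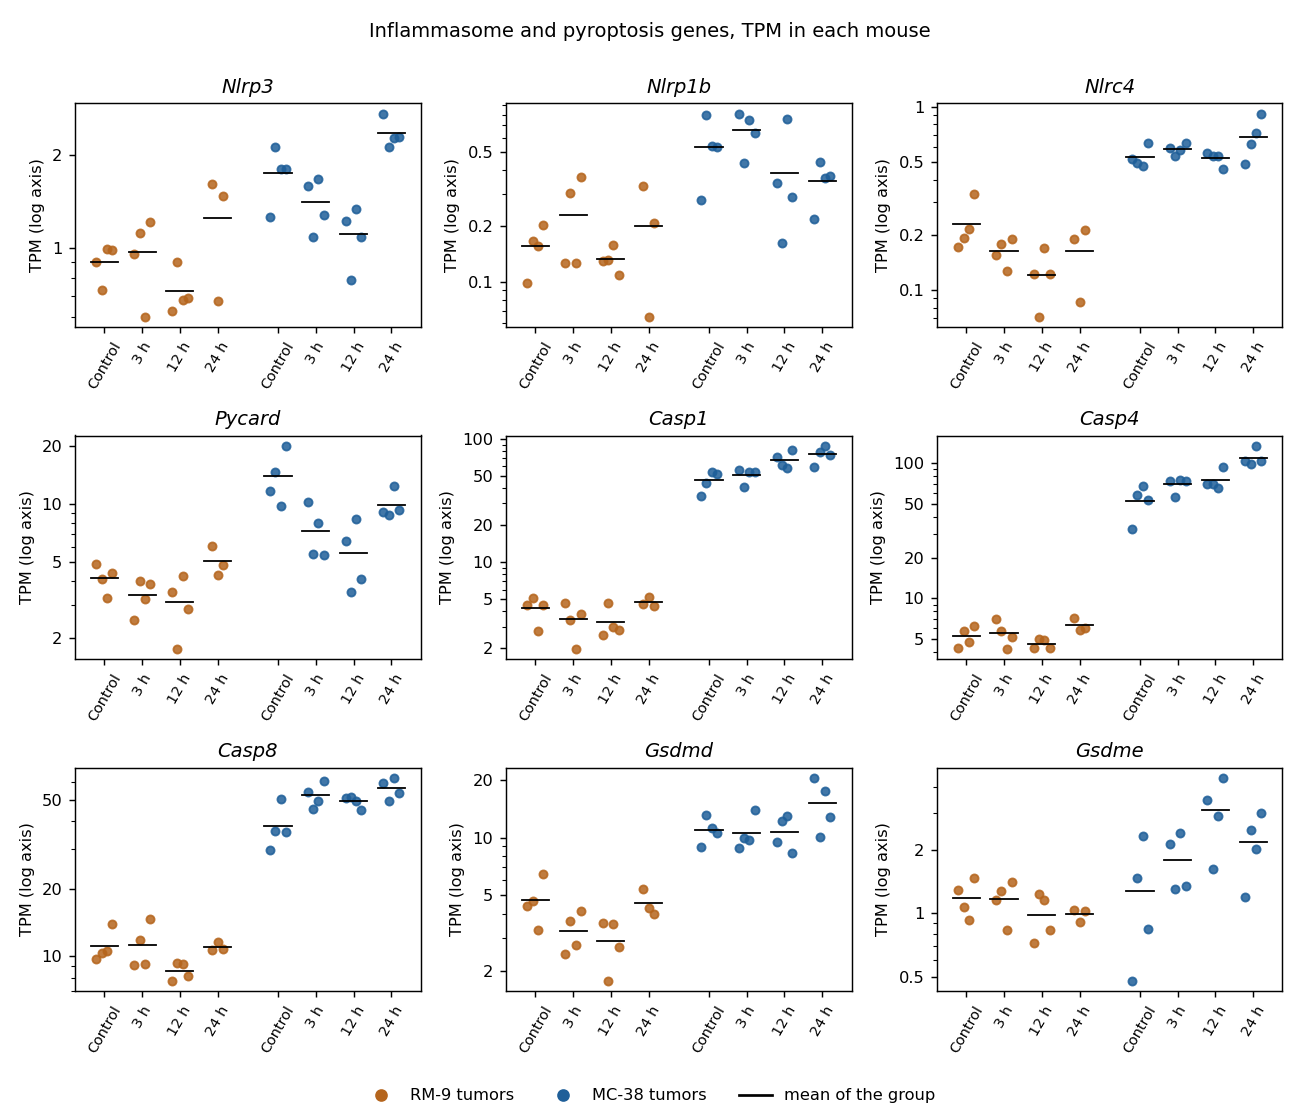
TPM of the 9 members on a log axis, 1 point per mouse and a line at the mean of each group, for RM-9 (brown) and MC-38 (blue) tumors in Control and 3, 12 and 24 h after RT. Casp1 and Casp4 lie about an order of magnitude higher in MC-38, Pycard is lowest at 12 h in MC-38, and Casp4 is highest at 24 h in MC-38.

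The baseline comparison asks how far the machinery differed between the untreated tumor models. All 3 caspases were far more abundant in MC-38 tumors. Casp1 was 34.6, 44.3, 54.1 and 51.6 TPM in the 4 MC-38 controls and 4.51, 5.09, 2.77 and 4.53 TPM in the 4 RM-9 controls. Casp4 was 32.4, 57.8, 68.2 and 53.3 TPM in MC-38 and 4.32, 5.78, 4.79 and 6.29 TPM in RM-9. The lowest MC-38 mouse was above the highest RM-9 mouse for both genes by a wide margin. That order, at any margin, held for 50.9% of all genes tested. On the log2(TPM + 0.5) scale Casp1 was 3.31 ± 0.20 (SE) higher in MC-38 and Casp4 3.17 ± 0.17 higher, with limma adjusted p of 4.67e-14 and 6.49e-15. Among all genes tested in MC-38, 82.9% lay below Casp1 and 85.2% below Casp4, while in RM-9 tumors the shares were 33.8% and 39%. These are ranks of deposited TPM, which for Casp4 was 2.58 to 2.90 times the level its coverage gives.

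The adaptor and the other caspase stood in the same order with smaller differences. Casp8 was 38.1 ± 8.69 TPM (SD, n = 4) in MC-38 and 11.1 ± 1.87 (SD, n = 4) in RM-9 controls, and across libraries its deposited TPM was 1.62 to 2.05 times the level from its coverage. Pycard was 14 ± 4.52 TPM (SD, n = 4) against 4.13 ± 0.67 (SD, n = 4). Gsdmd, the executioner of pyroptosis, was 11 ± 1.74 TPM (SD, n = 4) against 4.70 ± 1.3 (SD, n = 4). Every MC-38 control was above every RM-9 control for each of the 3 genes, as for 50.9% of all genes tested. In the fit of all 31 libraries the log2 differences were 1.72 ± 0.14 (SE) for Casp8, 1.61 ± 0.25 for Pycard and 1.17 ± 0.22 for Gsdmd.

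The sensors were scarce in both models. Nlrp3 was 1.74 ± 0.36 TPM (SD, n = 4) in MC-38 and 0.90 ± 0.12 (SD, n = 4) in RM-9 controls, a coverage of about 2.57 and 2.00 reads per base. Nlrp1b was 0.28 to 0.79 TPM in MC-38 controls and 0.10 to 0.20 in RM-9, and Nlrc4 was 0.47 to 0.64 against 0.17 to 0.33. None of the 3 sensors was at 0 in any library. Nlrp1b in either model, and Nlrc4 in RM-9 and in the fit of both models, were under the mean of 0.5 TPM set for testing, so 7 of the 9 members were tested between models. Gsdme was 0.48 to 2.33 TPM in MC-38 and 0.93 to 1.47 in RM-9 controls, and these ranges overlapped. The deposited TPM of Nlrp1b was 1.46 to 1.49 times the level its read coverage gives. That of Gsdme was 6.93 to 9.35 times its level, so it rested on a median of 0.22 reads per base in MC-38 and 0.32 in RM-9 controls.

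Of the 7 members tested, 6 were called higher in MC-38 and 0 lower, where 64.7% of all 15358 genes tested were called higher and 10.7% lower (75.4% called in all). After median-ratio scaling, 34.1% of genes were called higher and 31.5% lower, and the calls among the members differed. The differences stayed large for Casp1 (2.68 ± 0.18), Casp4 (2.53 ± 0.14), Casp8 (1.06 ± 0.11) and Pycard (0.99 ± 0.27). That of Gsdmd was 0.54 ± 0.23 with adjusted p = 0.0383. Nlrp3 was no longer called, with a difference of 0.19 (95% confidence interval -0.16 to 0.53), and Gsdme was called lower, with a log2 difference of -0.52 and adjusted p = 0.0466. The sequencing run is not given in the labels, so model and run cannot be told apart.

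Other genes of the pathway differed between the untreated models as well. Of 41 genes listed with the members, 29 were tested. Of these, 22 were called higher in MC-38 and 2 lower, where 64.7% and 10.7% of all genes were. The 3 with the largest differences were Zbp1, a sensor of Z-form nucleic acids (258 against 13.3 TPM), Irf1, an interferon-regulated transcription factor (164 against 18.2 TPM), and Mlkl, which carries out necroptosis (99.4 against 15.0 TPM). The genes called lower were Il1a, the alarmin interleukin 1α (0.31 against 0.75 TPM), and Ninj1, which ruptures the membrane of dying cells (28.1 against 39.8 TPM). After median-ratio scaling 14 were called higher and 6 lower, where 34.1% and 31.5% of all genes were. The summed level of 10 interferon-stimulated genes was 1594 to 2972 TPM in MC-38 and 101 to 184 in RM-9 controls, and that of 11 macrophage markers was 1083 to 1821 and 598 to 943. Their part in the differences of the members was not tested.

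After irradiation of RM-9 tumors no member passed limma's test at any time. Of 7 members tested, 0 were called at 3 h, where 0.228% of 14013 genes were called, 0 at 12 h, where 8.37% were, and 0 at 24 h, where 0 genes were. The count was also 0 at each time after median-ratio scaling, where 2.73%, 0.136% and 0% of genes were called. Dunnett's comparisons on TPM, the kind of test named in the study's methods and adjusted only over the 3 times of a gene, called none of these 7 members and called Nlrc4 lower at 12 h. They assume normal errors, as limma does, which 3 or 4 mice a group cannot check. Exact permutation p values on mean TPM are therefore given in place of theirs. Each of these compares 2 groups and is not adjusted over the 3 times. At an unadjusted p under 0.05 there was 1 member at 3 h, 2 at 12 h and 0 at 24 h. Of all 14013 genes, 3060, 4344 and 681 had such a p. The median log2 change of the members tested was -0.02, -0.34 and 0.17, beside 0.06, -0.19 and -0.04 for all genes. The 8 skeletal muscle markers summed to 233 to 2242 TPM in RM-9 controls, 3.02 to 878 at 3 h, 2.83 to 915 at 12 h and 215 to 2258 at 24 h, and their part in these values was not tested.

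The nearest to a call in RM-9 was Gsdmd at 12 h. It was 4.40, 4.64, 3.30 and 6.45 TPM in Control and 3.58, 1.78, 3.56 and 2.69 TPM at 12 h, and the groups overlapped. Its log2 change was -0.62 ± 0.21 (SE) with limma adjusted p = 0.0745 (called only with Control mouse 3 left out), and -0.43 ± 0.22 with adjusted p = 0.387 after scaling. Casp8 was 9.71 to 13.9 TPM in Control and 7.71 to 9.26 at 12 h, with all 4 RT mice below every control. For Casp8 the exact permutation test, two-sided on mean TPM, gave p = 0.0286, the smallest that 4 mice against 4 allow, while limma's adjusted p was 0.116. Nlrc4, too low for limma, had the same order, 0.17 to 0.33 TPM in Control and 0.07 to 0.17 at 12 h, with the same exact permutation p of 0.0286. At that time 19.4% of all genes had every RT mouse below every control.

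In RM-9 tumors the irradiated groups overlapped Control for Pycard, Casp1 and Casp4 at each time. Pycard was 3.25 to 4.85 TPM in Control, 2.48 to 4.00 at 3 h, 1.76 to 4.24 at 12 h and 4.28 to 6.01 at 24 h. Casp1 was 2.77 to 5.09 TPM in Control and between 1.97 and 5.26 in the irradiated mice. Casp4 was 4.32 to 6.29 TPM in Control and between 4.22 and 7.19 after RT. Its 95% confidence interval at 24 h ran from -0.08 to 0.58 on the log2 scale. For Pycard at 12 h the interval ran from -0.84 to 0.03, and from -0.70 to 0.26 after scaling. Between 12 h and 24 h, a comparison added after the values were seen, 0 of 7 members were called, where 0% of genes were. An unadjusted p under 0.05 was found for 5 members, or 1 after scaling. Of all 14013 genes, 2638 had such a p, or 1480 after scaling.

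**Figure D2:**
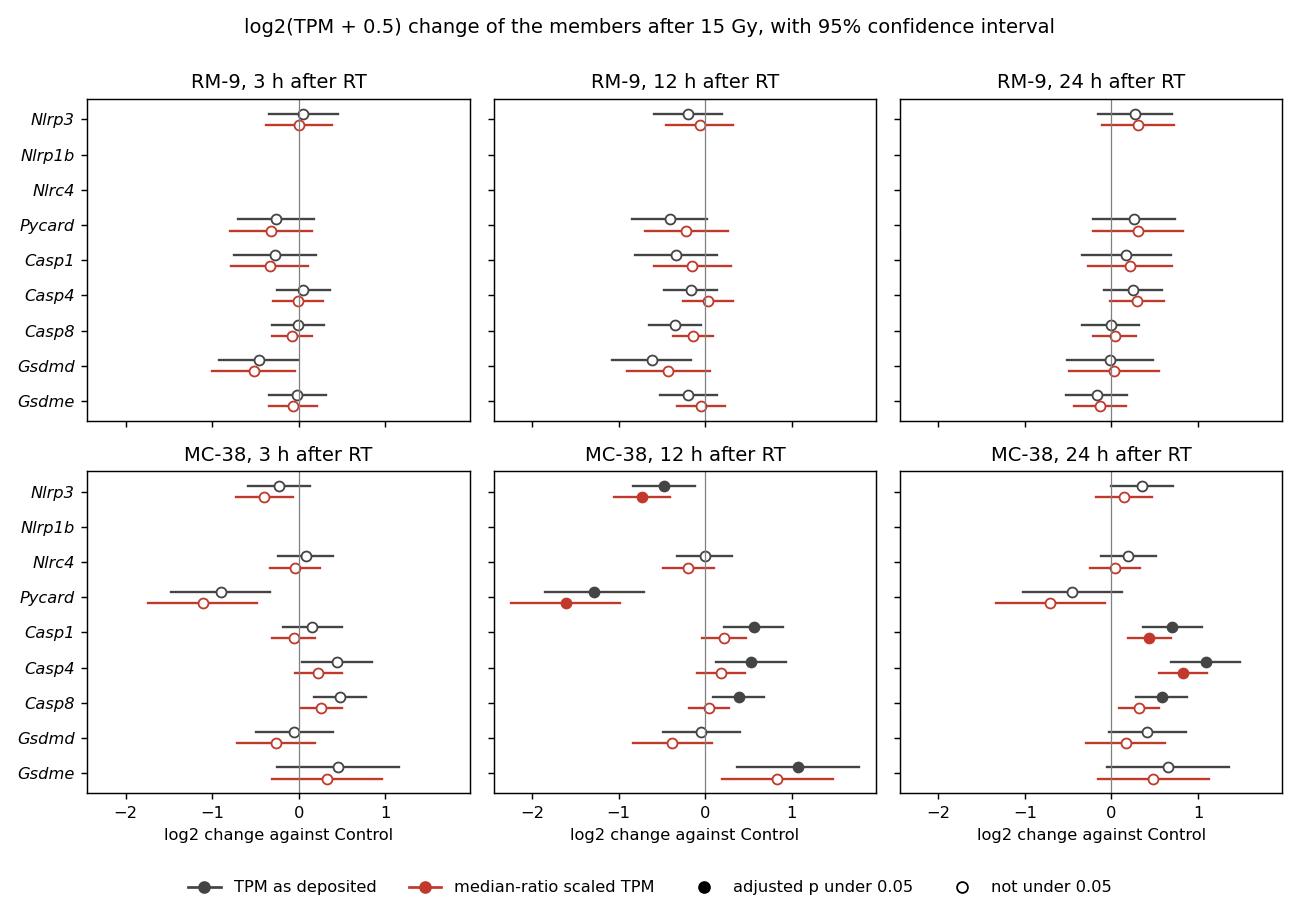
Log2 change of each tested member against Control at 3, 12 and 24 h after RT (columns) in RM-9 and MC-38 tumors (rows), with its 95% confidence interval, for TPM as deposited (grey) and median-ratio scaled TPM (red), filled where adjusted p is under 0.05. No point is filled in RM-9. In MC-38 the falls of Pycard and Nlrp3 at 12 h and the rises of Casp1 and Casp4 at 24 h are filled on both scales.

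In MC-38 tumors the members moved in different directions and at different times. The adaptor Pycard had fallen by 12 h, with the sensor Nlrp3, and Casp1 and Casp4 had risen by 24 h. At 3 h, 0 of 8 members tested were called, where 0.0637% of 15698 genes were. An unadjusted p under 0.05 was found for 3 members and for 3130 of all genes. At 12 h 6 members were called, 4 higher and 2 lower, where 31.1% of genes were called, 28.5% higher and 2.59% lower. At 24 h 3 were called, all higher, where 13.8% were called, 13.2% higher and 0.548% lower. After median-ratio scaling the counts were 0 at 3 h, where 0.65% of genes were called, 0 higher and 2 lower at 12 h, where 6.34% and 9.84% of genes were, and 2 higher at 24 h, where 7.85% of genes were. The members called on both scales are described first.

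Pycard was 11.7, 14.6, 9.72 and 20.1 TPM in the 4 controls. It was 10.2, 5.48, 7.97 and 5.42 TPM at 3 h, 6.42, 3.49, 8.33 and 4.06 TPM at 12 h and 9.12, 8.73, 12.4 and 9.28 TPM at 24 h. All 4 mice at 12 h were below every control, and 3 of 4 were at 3 h and at 24 h. The log2 change at 12 h was -1.28 ± 0.27 (SE; limma adjusted p = 0.010), or -1.61 ± 0.30 after scaling (adjusted p = 0.00474), and it was called whichever mouse was left out. Only 1.97% of genes had every mouse at 12 h below every control. At 3 h the change was -0.90 ± 0.27 with adjusted p = 0.141, and Dunnett's comparisons called it lower (exact permutation p = 0.0571). At 24 h it was -0.45 ± 0.27 with adjusted p = 0.271.

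Nlrp3 was also low at 12 h, and it was higher again at 24 h. It was 1.26, 2.12, 1.80 and 1.79 TPM in Control and 1.58, 1.09, 1.67 and 1.28 TPM at 3 h. At 12 h it was 1.23, 0.79, 1.34 and 1.08 TPM, and at 24 h 2.71, 2.12, 2.27 and 2.28 TPM. These values rested on a median of 1.49 reads per base at 12 h and 3.00 at 24 h. From coverage, the Nlrp3 level of RT 24 h mouse 1 was 2.06. At 12 h 3 of 4 mice were below every control, and at 24 h all 4 were above every mouse at 12 h, as 4.95% of genes were. The change at 12 h was -0.48 ± 0.17 with adjusted p = 0.0438, a call lost in 12 of the 16 fits that left out a mouse, and -0.73 ± 0.15 with adjusted p = 0.00847 after scaling. Against Control the level at 24 h had a log2 difference of 0.35 ± 0.17 with adjusted p = 0.170, and Dunnett's comparisons called it higher (exact permutation p = 0.0571). Between 12 h and 24 h, a comparison added after the values were seen, Nlrp3 rose by 0.83 ± 0.17 (adjusted p = 0.0179), or 0.88 ± 0.15 after scaling (adjusted p = 0.00482), where 1.68% and 5.58% of genes were called. Without RT 12 h mouse 2 or 4, or RT 24 h mouse 1 or 4, that call as deposited was lost, and without Control mouse 1 Casp4 was called with it.

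Casp4 had risen by 24 h. It was 32.4, 57.8, 68.2 and 53.3 TPM in Control, and 73.3, 56.7, 75.6 and 74.5 TPM at 3 h. It was 70.1, 69.8, 65.5 and 93.0 TPM at 12 h and 103, 98.5, 135 and 103 TPM at 24 h. Every mouse at 24 h was above every mouse of the other 3 groups. Of all genes tested, 14.8% had every mouse at 24 h above every control, and 4.95% above every mouse at 12 h. The share for the 3 groups together was not taken. The log2 change at 24 h was 1.09 ± 0.19 (adjusted p = 0.00236), a 2.13-fold rise, and 0.83 ± 0.13 after scaling (adjusted p = 0.00107), or 1.77-fold. It was called in all 10 alternative fits and whichever mouse was left out. The deposited TPM of Casp4 was 2.58 to 2.90 times the level its coverage gives, and the level from coverage is among those alternatives. At 12 h the change was 0.53 ± 0.19 with adjusted p = 0.0458, and 0.18 ± 0.13 with adjusted p = 0.333 after scaling, and Dunnett's comparisons did not call it (exact permutation p = 0.0571).

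Casp1, which lies just before Casp4 (chr9:5298517-5307265 and chr9:5308828-5336783, both plus strand), rose less. It was 34.6, 44.3, 54.1 and 51.6 TPM in Control and 56.1, 40.8, 53.6 and 53.9 TPM at 3 h. At 12 h it was 71.5, 61.4, 58.2 and 80.9 TPM, and at 24 h 59.8, 78.1, 88.4 and 73.7 TPM. The groups at 12 h and at 24 h lay wholly above Control, as 34.5% and 14.8% of genes did. The change at 24 h was 0.70 ± 0.16 (adjusted p = 0.0110), or 1.63-fold, and 0.44 ± 0.12 after scaling (adjusted p = 0.0205), or 1.36-fold. At 12 h it was 0.56 ± 0.16 (adjusted p = 0.0221), and 0.22 ± 0.12 with adjusted p = 0.211 after scaling. The ratio of Casp4 to Casp1 in deposited TPM, which no scaling of a whole library can alter, was 0.94 to 1.3 in Control, 1.31 to 1.41 at 3 h, 0.98 to 1.15 at 12 h and 1.26 to 1.72 at 24 h. The level from coverage gives other ratios. By it Casp4 was 11.8, 21.8, 25.8 and 19.8 in the 4 MC-38 controls, below Casp1 at 34.6, 44.3, 54.1 and 51.6.

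Casp1 and its adaptor moved apart in MC-38. Within a library of MC-38 the ratio of Casp1 to Pycard was 2.57 to 5.57 in Control, 5.5 to 9.94 at 3 h, 6.99 to 19.9 at 12 h and 6.56 to 8.95 at 24 h. In RM-9 tumors it was 0.85 to 1.25 in Control and between 0.61 and 2.63 in irradiated mice. The MC-38 groups at 12 h and 24 h did not overlap Control, and the RM-9 groups did. The share of gene pairs with such a gap was not taken. Of single genes in MC-38, 34.5% at 12 h and 14.8% at 24 h lay wholly above Control.

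Casp8 and Gsdme were called in MC-38 on TPM as deposited but not after median-ratio scaling. Casp8 was 29.8, 36.1, 50.3 and 36.0 TPM in Control, 54.3, 45.2, 49.5 and 60.8 TPM at 3 h, 50.9, 51.5, 49.3 and 45 TPM at 12 h and 59.5, 49.6, 62.7 and 53.4 TPM at 24 h. Control mouse 3 was inside the range of each irradiated group, and the other 3 controls were below all irradiated mice. The log2 change was 0.48 ± 0.14 at 3 h (adjusted p = 0.141), 0.39 ± 0.14 at 12 h (adjusted p = 0.0455) and 0.58 ± 0.14 at 24 h (adjusted p = 0.0144). After scaling the values were 0.26 ± 0.11 (adjusted p = 0.248), 0.04 ± 0.11 (adjusted p = 0.806) and 0.32 ± 0.11 (adjusted p = 0.0636). At 3 h Casp8 was called without Control mouse 3 and with the level from coverage, and Dunnett's comparisons called it at 3 h but not at 12 h (exact permutation p = 0.0857 at each time).

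Gsdme was 0.48, 1.48, 2.33 and 0.84 TPM in Control and 3.48, 1.63, 2.92 and 4.42 TPM at 12 h. The groups overlapped, since RT 12 h mouse 2 was below Control mouse 3. The change was 1.07 ± 0.33 (adjusted p = 0.0284), and 0.83 ± 0.30 with adjusted p = 0.0687 after scaling. It rested on a median of 0.51 reads per base at 12 h, and neither 3 h nor 24 h was called. Gsdmd, the gasdermin that caspase-1 and caspase-11 cut, was 8.97 to 13.2 TPM in Control, 8.88 to 13.9 at 3 h, 8.35 to 12.9 at 12 h and 10.1 to 20.6 at 24 h. Its change at 24 h was 0.42 (95% confidence interval -0.03 to 0.86) with adjusted p = 0.192.

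The remaining sensors showed no call in MC-38. Nlrc4 was 0.47 to 0.64 TPM in Control and between 0.46 and 0.92 in irradiated mice, and its intervals at the 3 times lay between -0.32 and 0.51. Nlrp1b was 0.28 to 0.79 TPM in Control, 0.44 to 0.81 at 3 h, 0.16 to 0.76 at 12 h and 0.22 to 0.44 at 24 h. It was too low for the main test. In the fit without a filter on low values its adjusted p was 0.716, 0.421 and 0.461.

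The 12 h calls in MC-38 other than that of Pycard depended on single libraries. Without MC-38 Control mouse 1, the mouse with the high muscle and mt-Nd4l levels, 2 members were called at 12 h, Nlrp3 (-0.59, adjusted p = 0.0345) and Pycard (-1.35, adjusted p = 0.0187), and the 3 calls at 24 h were kept, with Casp1 at 0.57 (adjusted p = 0.0281), Casp4 at 0.87 (adjusted p = 0.00272) and Casp8 at 0.47 (adjusted p = 0.0363). With RT 12 h mouse 4 left out, 1 member, Pycard, was called at 12 h. That mouse had the highest Casp1, Casp4 and Gsdme of its group, and its 6 keratinocyte markers summed to 68.2 TPM, against 0.44 to 1.27 in the other MC-38 mice. The summed muscle markers at 12 h were 5.6 to 461 TPM, and the part of muscle and skin in these changes was not tested. Of the 8 members tested, 2 or 3 were called without Control mouse 4, RT 3 h mouse 1 or 3, RT 12 h mouse 1, 2 or 3, or RT 24 h mouse 4.

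**Figure D3:**
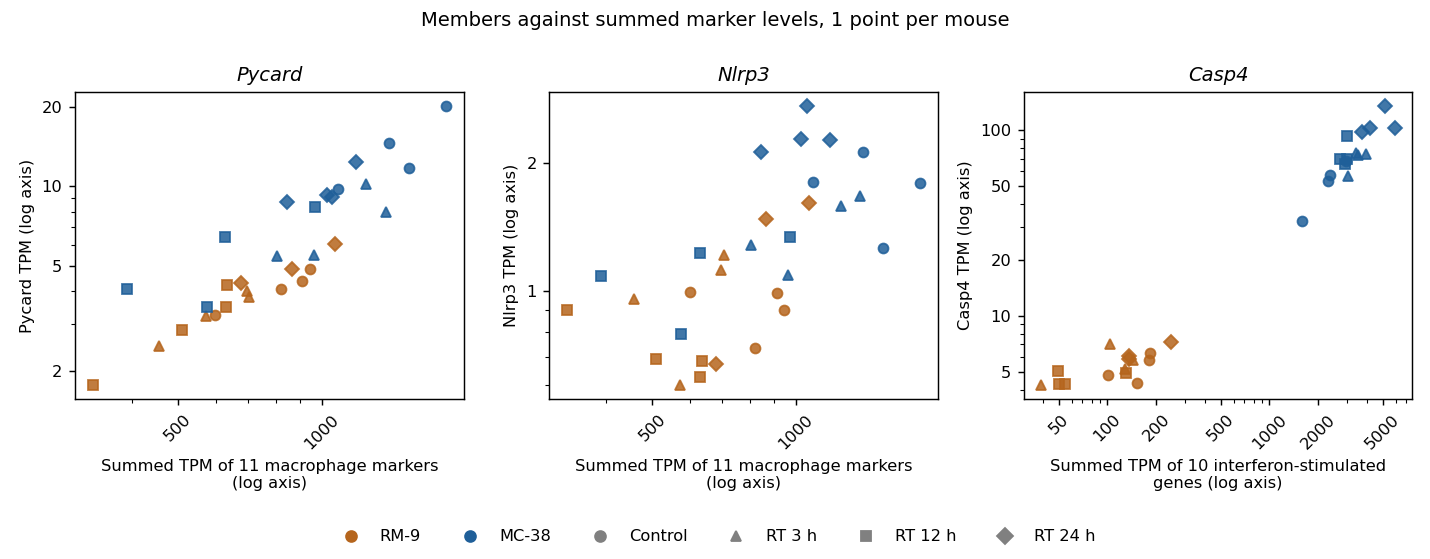
TPM of Pycard and Nlrp3 against the summed TPM of 11 macrophage markers, and of Casp4 against the summed TPM of 10 interferon-stimulated genes, on log axes, with 1 point per mouse, colored by tumor model and shaped by time. Pycard is low where the macrophage markers are low in both models, and the 4 MC-38 mice at 24 h lie at 2.12 to 2.71 TPM of Nlrp3 with macrophage markers of 845 to 1180 TPM.

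Macrophage markers were lower in MC-38 at the time when Pycard was lowest. The summed level of 11 markers was 1083 to 1821 TPM in MC-38 controls, 806 to 1361 at 3 h, 390 to 969 at 12 h and 845 to 1180 at 24 h. At 12 h 7 of the 11 were called lower and 0 higher, and 8 lower after median-ratio scaling. Of all genes tested, 2.59% were called lower at 12 h, or 9.84% after scaling. Pycard per 1000 TPM of these markers was 7.69 to 11 in Control and 5.71 to 8.23 at 3 h. It was 6.06 to 10.4 at 12 h and 8.67 to 10.5 at 24 h, and the ranges at all 3 times overlapped Control. The medians were 9.79 in Control and 6.29, 9.41 and 9.69 at 3, 12 and 24 h. In RM-9 tumors, where the summed markers ran from 332 to 1066 TPM, the same quotient was 4.78 to 6.68 in all 15 mice. For Nlrp3 the quotient in MC-38 was 0.83 to 1.66 in Control and 1.13 to 1.59 at 3 h. It was 1.38 to 2.78 at 12 h and 1.92 to 2.58 at 24 h, and the mice at 24 h were all above Control. The share of genes whose quotient had that order was not taken. T cell markers were lower as well, with 4 of 8 called lower at 12 h and 3 at 24 h. At 24 h 0.548% of all genes were called lower.

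Interferon-stimulated genes were highest in MC-38 at 24 h, as Casp4 was. Their summed level in MC-38 was 1594 to 2972 TPM in Control, 3056 to 3962 at 3 h, 2735 to 3018 at 12 h and 3710 to 5937 at 24 h. All 10 genes were called higher at 24 h on both scales. Of all genes, 13.2% were called higher at that time, or 7.85% after scaling. In MC-38 Casp4 per 1000 TPM of these genes was 20.3 to 24.3 in Control and 18.6 to 22.2 at 3 h. It was 22.3 to 30.8 at 12 h and 17.4 to 26.5 at 24 h, and the ranges at all 3 times overlapped Control. In RM-9 tumors the same quotient was 28.5 to 47.4 in Control, 40.2 to 108 at 3 h, 38.0 to 102 at 12 h and 29.1 to 44.8 at 24 h. Neutrophil markers summed to 24.5 to 37.0 TPM in MC-38 controls, with 1 of 7 tested called higher at 24 h. At 24 h the sum was 151 TPM in mouse 1 and 43.3 to 64.5 in the other mice. Among these markers Mmp9 had the highest level, up to 125 TPM over the MC-38 tumors. There S100a9 reached 17.6 TPM, Cxcr2 0.98 and Ly6g 0.17. The part of these cell types and of interferon in the changes of the members was not tested.

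A difference between the models in the change at 12 h was called for 5 of 7 members. Casp1, Casp4, Casp8 and Gsdme changed more in the upward direction in MC-38 than in RM-9, by 0.90 ± 0.28, 0.70 ± 0.25, 0.74 ± 0.20 and 1.26 ± 0.38 on the log2 scale, with adjusted p of 0.0148, 0.0259, 0.00752 and 0.0118. Pycard had a difference of -0.87 ± 0.35 with adjusted p = 0.0453. However, 45.4% of all 15358 genes were called in this contrast, 44.9% higher. After median-ratio scaling 0 members were called, where 2.84% of genes were. At an unadjusted p under 0.05 there were then 3 members and 3130 of all genes. As deposited, 3 were called without MC-38 Control mouse 1, MC-38 RT 12 h mouse 4, RM-9 Control mouse 4 or RM-9 RT 12 h mouse 1. The scaled difference for Pycard was -1.32 ± 0.39 with adjusted p = 0.0587. At 3 h and 24 h 0 members were called, where 0 and 1.81% of genes were. At an unadjusted p under 0.05 there were 1 and 3 members, beside 1519 and 3402 of all genes. For Casp4 at 24 h the difference was 0.84 ± 0.26 with adjusted p = 0.0731, so its rise in MC-38 was not shown to differ from the change in RM-9. Without MC-38 Control mouse 3 the differences of Casp4 and Casp8 at 24 h were called.

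**Figure D4:**
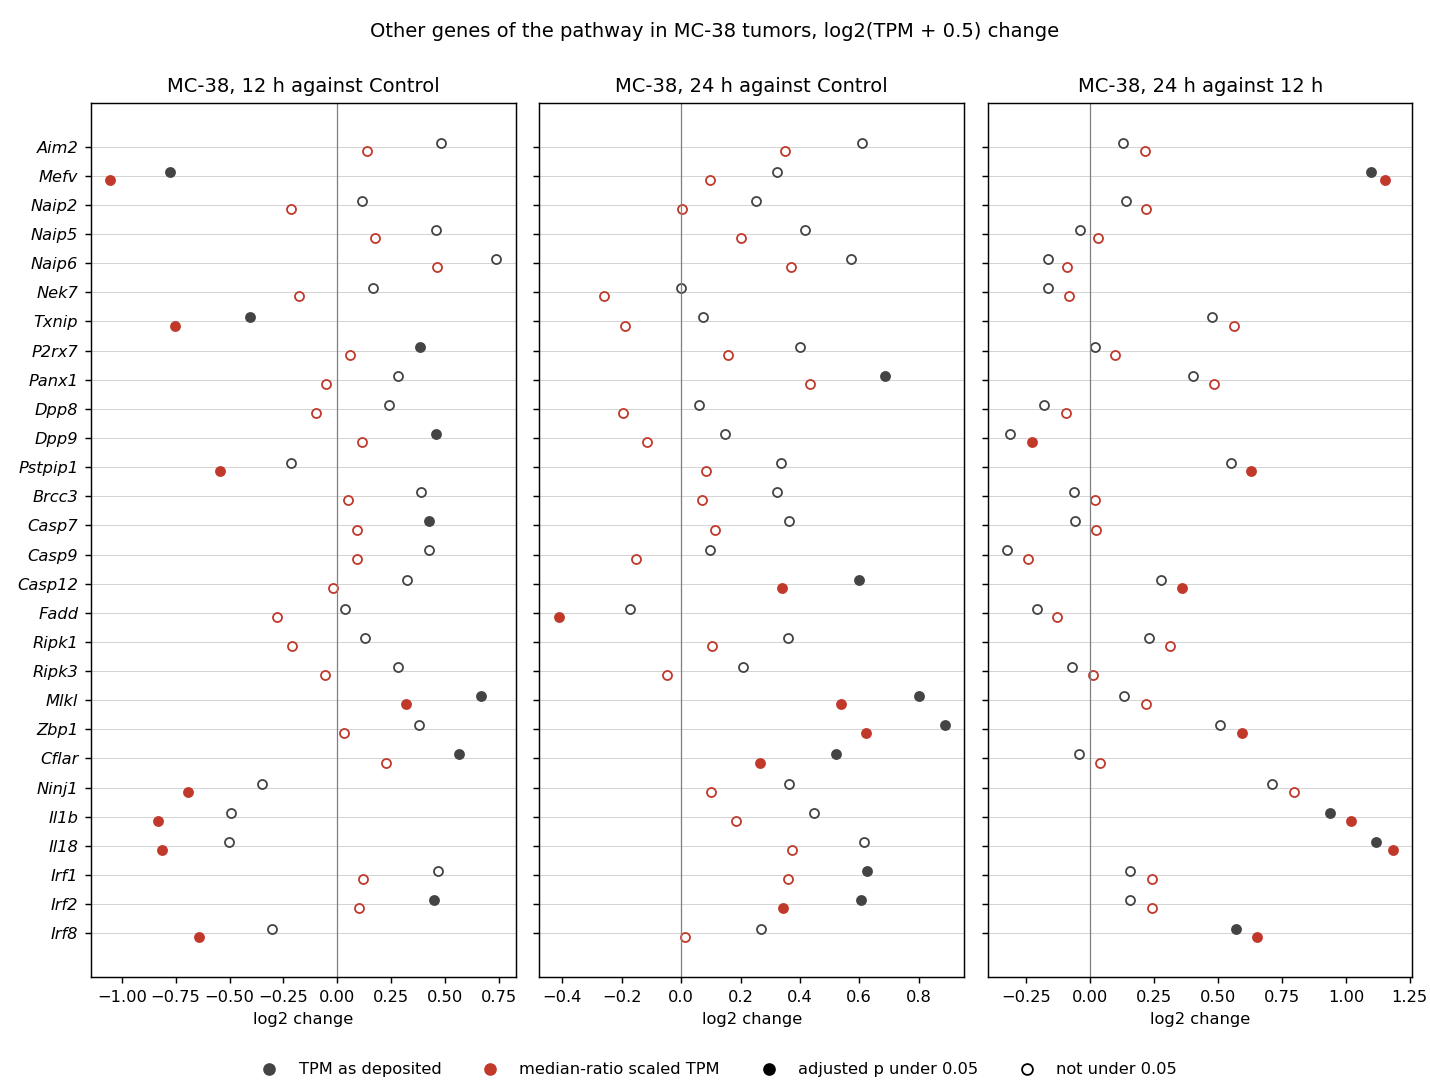
Log2 change of 28 other genes of the pathway in MC-38 tumors at 12 h and 24 h against Control and at 24 h against 12 h, for TPM as deposited (grey) and median-ratio scaled TPM (red), filled where adjusted p is under 0.05. At 12 h Mefv and Txnip are filled on the lower side on both scales, and Mefv, Il1b, Il18 and Irf8 are filled on the higher side from 12 h to 24 h.

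Other genes of the pathway in MC-38 also went both ways at 12 h. Of 28 genes tested, 6 were called higher and 2 lower, where 28.5% of all genes were called higher and 2.59% lower. Those with the largest rises were Mlkl (99.4 to 154 TPM, log2 change 0.67), Cflar, a brake on caspase-8 (15.2 to 22.3 TPM, 0.57), and Dpp9, a dipeptidyl peptidase that restrains NLRP1B (32.7 to 44.7 TPM, 0.46). The genes that fell were Mefv, which encodes the sensor pyrin (2.73 to 1.36 TPM, a log2 change of -0.78), and Txnip, a binding partner of NLRP3 (56.6 to 42.6 TPM, -0.40). After scaling 1 gene, Mlkl, was called higher and 7 were called lower, among them Mefv (-1.05), Il1b (-0.83) and Il18 (-0.81). Of all genes, 6.34% were then called higher and 9.84% lower. The cytokines Il1b and Il18, which caspase-1 matures, were not called as deposited, with adjusted p of 0.0521 and 0.0922.

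At 24 h 7 of the 28 genes were called higher and 0 lower in MC-38, where 13.2% and 0.548% of all genes were. The largest rises were those of Zbp1 (258 to 470 TPM, log2 change 0.89), Mlkl (to 169 TPM, 0.80) and Panx1, a channel that releases ATP (9.62 to 16 TPM, 0.69). After scaling 5 were called higher, with Zbp1 at 0.62 and Mlkl at 0.54, and Fadd, the adaptor of caspase-8, was called lower at -0.41. Of all 15698 genes, 1232 were then called higher and 1280 lower. Between 12 h and 24 h Il18 rose from 3.26 to 7.67 TPM (1.12) and Mefv from 1.36 to 3.49 TPM (1.10). Il1b rose from 15.9 to 31.2 TPM (0.94). For all 3 genes every mouse at 24 h was above every mouse at 12 h, as for 4.95% of all genes tested. Each was called after scaling too. Of all genes tested, 1.68% were called as deposited and 5.58% after scaling. At 3 h 0 of the 28 were called, where 0.0637% of all genes were. An unadjusted p under 0.05 was found for 7 of the 28 and for 3130 of all 15698 genes.

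In RM-9 tumors 8.37% of all 14013 genes tested were called at 12 h, with 1163 genes lower. Of 27 pathway genes tested, 2 were called, both at 12 h and both lower. They were Irf8, a transcription factor of myeloid cells (9.83 to 6.78 TPM, a log2 change of -0.51), and Fadd (2.80 to 1.94 TPM, -0.44). Neither was called after scaling, where 0.136% of genes were. At 3 h and 24 h the count was 0, where 0.228% and 0% of genes were called. At an unadjusted p under 0.05 there were 5 and 2 genes of the list, and 3060 and 681 of all 14013. The macrophage markers of RM-9 were 598 to 943 TPM in Control and 332 to 634 at 12 h, with 5 of 11 called lower as deposited and 0 after scaling. Of the other gasdermins, 7 were listed with the members, and all were under 0.5 TPM in every group, Gsdma2 and Gsdma3 being at 0 throughout.

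The genes most like each member across the 31 libraries were sought among 12256 genes, after median-ratio scaling and as deviations from the mean of the tumor model. Those nearest to Pycard were Bcl2a1d, Bcl2a1a and Fcer1g, with Pearson r of 0.94, 0.94 and 0.93. Fcer1g encodes the signaling chain of Fc receptors on myeloid cells. Those nearest to Casp4 were Trafd1, AI607873 and Ccl2, with r of 0.86, 0.85 and 0.84, and the values for Trafd1 were 0.57 within RM-9 and 0.94 within MC-38. Those nearest to Casp1 were Pcolce, Hopx and Tgtp2, with r of 0.78, 0.78 and 0.77. Among the members themselves the highest r was 0.67, between Casp1 and Casp4, followed by 0.57 between Gsdmd and Pycard. These correlations are descriptions over libraries that share the treatment groups, and they carry no test.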

How the data were processed

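Each library came with a deposited table of TPM, FPKM and coverage, in which TPM and FPKM had been scaled by the authors within the library, while coverage is the average number of reads over the bases of a gene, a signal that keeps the depth. Per the labels and the study's methods, a stranded mRNA kit was used and reads were single and 75 bases long. The submitters' notes name bcl2fastq 2.17 and GRCm39, but the coordinates matched GRCm38 (GENCODE M21), with 45137 of 46072 gene IDs shared. The aligner, the counting program and its strand setting are not given in the sources used here, so reads of overlapping genes cannot be told apart. Gsdme overlapped Mpp6, and Pycard overlapped Gm45205, on opposite strands. Nlrc4 overlapped a pseudogene, and Casp8 overlapped Gm37760, on the same strand. Gsdme was matched as Dfna5 through RefSeq synonyms. FPKM served only to find the depth from coverage.

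The members were tested in limma (3.58.1, R 4.3.3; lmFit, eBayes with an intensity trend) on log2(TPM + 0.5), a scale that understates the changes of low genes. The test ran over genes averaging 0.5 TPM or more, 14013 in RM-9 and 15698 in MC-38, with Benjamini-Hochberg adjustment over all of them and a threshold of 0.05. The 4 groups of a model shared 1 fit, and contrasts between models came from 1 fit of all 31 libraries. The script was tested on simulated data. Other work used Python 3.11.15 with pandas 2.3.3, numpy 2.4.6, scipy 1.17.1 and matplotlib 3.10.9.

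All members were named, and from the pathway list up to 3 genes called higher and 3 called lower in a comparison, by size of change, with any others picked after their values were seen. The members and lists were chosen with earlier results of these data known. A gene of the pathway list and a prostate marker are not reported here. The settings varied were the pseudocount (0.1 or 1), the scaling (median-ratio, or TPM without mitochondrially encoded genes), the filter (none, or a mean of 5 TPM), the trend, the groups in the fit, the replicate block and the mice, each left out in turn. A level from coverage and the contrast of 24 h with 12 h were added after the data had been seen. Read counts were not part of the tables used here, so no counting error is given.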

Additional observations from a re-analysis of the deposited data

Results flagged for a closer look

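In a group of 4 mice, 5 of 63 groups of a member held a mouse far from the other 3 by Dixon's criterion, which chance meets in about 1 group in 20. Mouse 2 of MC-38 RT 3 h was low for Casp1 (40.8 TPM) and for Casp4 (56.7 TPM). Mouse 4 of MC-38 RT 12 h was high for Casp4 (93.0 TPM). Mouse 3 of MC-38 RT 24 h was high for Casp4 (135 TPM) and for Pycard (12.4 TPM).

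The change at 12 h differed between the models, by an interaction contrast in limma on TPM as deposited, for Casp1 (0.90 on the log2 scale), Casp4 (0.70), Gsdme (1.26), Pycard (-0.87) and Casp8 (0.74). None of these 5 differences was called after median-ratio scaling.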

How the results depend on the processing

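Between untreated models, where 6 members were called higher, median-ratio scaling gave 5 higher (not Nlrp3) and 1 lower (Gsdme), TPM without mitochondrially encoded genes 5 (not Nlrp3), the coverage-based level 6 with Nlrc4 in place of Nlrp3, a mean of at least 5 TPM 5, no filter 8, and each fit with a mouse left out 6. At 12 h in MC-38, where 6 members were called, 2 were called after median-ratio scaling, 4 with the coverage-based level, 4 without mitochondrially encoded genes, 2 without a filter and 1 with only the 2 groups fitted, and 1 to 6 with a mouse left out. At 24 h the 3 calls became 1 with only the 2 groups fitted. At 3 h the coverage-based level gave 1 call in place of 0, and leaving out a mouse gave 0 to 1. Against 12 h, where 1 was called at 24 h, the coverage-based level, median-ratio scaling and TPM without mitochondrially encoded genes gave 2 each, a mean of at least 5 TPM gave 0, and a mouse left out 0 to 2. For the difference between models at 12 h the 5 calls became 2 with the coverage-based level, 0 after median-ratio scaling, 3 without a filter and 2 without mitochondrially encoded genes, and 3 to 5 with a mouse left out. At 24 h that difference gave 0 to 2 calls with a mouse left out (2 without MC-38 Control mouse 3), and RM-9 at 12 h 0 to 1 (Gsdmd without Control mouse 3). The cause of these shifts was not tested.

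Changes near 0 that were never called changed sign. After median-ratio scaling the log2 values were -0.0094 (Casp4, RM-9 3 h), 0.033 (Casp4, RM-9 12 h), 0.028 (Gsdmd, RM-9 24 h), 0.037 (Casp8, RM-9 24 h), -0.044 (Nlrc4, MC-38 3 h), -0.061 (Casp1, MC-38 3 h), -0.16 (Nlrp3, models at 24 h) and -0.090 (Gsdme, RM-9 24 h against 12 h). Without mitochondrially encoded genes they were 0.016 (Gsdmd) and 0.023 (Casp8) in RM-9 at 24 h, -0.063 (Nlrp3, models at 24 h) and -0.059 (Gsdme, RM-9 24 h against 12 h). With the coverage-based level they were 0.098 (Casp8, RM-9 3 h), 0.029 (Gsdmd) and 0.042 (Casp8) in RM-9 at 24 h, and -0.054 (Nlrp3, models at 24 h). The mean TPM of Casp8 in RM-9 at 3 h was higher by 0.036, in Dunnett's comparisons and in the exact permutation test alike. With a mouse left out the ranges in RM-9 were -0.027 to 0.19 (Nlrp3), -0.059 to 0.17 (Casp4), -0.096 to 0.084 (Gsdme) and -0.14 to 0.099 (Casp8) at 3 h, -0.16 to 0.13 (Gsdmd) and -0.068 to 0.097 (Casp8) at 24 h, and -0.069 to 0.10 (Gsdme) at 24 h against 12 h. In MC-38 they were -0.18 to 0.035 (Gsdmd) at 3 h, and -0.033 to 0.042 (Nlrc4) and -0.14 to 0.064 (Gsdmd) at 12 h. Between models they were -0.29 to 0.22 (Gsdme, untreated) and -0.19 to 0.23 (Nlrp3, 24 h).

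The mice carry the same replicate numbers in each group, but the numbers did not pair them: 5 of 21 same-numbered pairs in RM-9 and 7 of 24 in MC-38 had a correlation over 0.1 in their deviations. The replicate block left the count of called members as it was in all comparisons, with 6 at 12 h and 3 at 24 h in MC-38, and gave 0.064 for Gsdmd and 0.062 for Casp8 in RM-9 at 24 h. Values under 1 TPM, those of Gsdme, and those of Nlrp3 in MC-38 rest on a coverage near or below 3 reads per base.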
